A study of Mus musculus with 44 samples.

Results

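The 40 genes described here are named genes of the cell cycle, chosen as a list and mapped by symbol to the Ensembl gene identifiers of the deposited count tables. All 40 were found among the 29720 genes of those tables, and all 40 passed the filter on low counts in both mouse models. They comprise 10 genes of replication licensing and the replication fork, 3 of nucleotide synthesis, 8 cyclins and cyclin-dependent kinases, 8 mitotic and checkpoint kinases with the regulators of anaphase, 9 spindle, kinetochore and chromosome proteins, and 2 transcription factors. RNA of mouse intestine, poly-A selected and sequenced with strand kept, was measured in 44 libraries of C57BL/6 mice.

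The T cell transfer model used Rag1 null mice, which make no T or B cells of their own, and RNA of the distal colon per the protocols. Inflamed mice had received 400000 naive T cells and developed colitis within 8 to 12 weeks, and non-inflamed mice had received 200000 bulk T cells, so these groups also differ in the number and kind of T cells given. The TNFΔARE model compared inflamed Tnf ΔARE/+ mice with Tnf +/+ littermates as non-inflamed controls, from 16 weeks of age, in the ileum. In both models mice received vehicle (0.5% methylcellulose and 0.025% Tween20 in PBS) or ATI-450 at 3 mg/kg, which inhibits MK2, a kinase downstream of p38. They were dosed again after 16 h and harvested 90 min after the second dose, where the series description speaks of 24 h of treatment. There were 5 non-inflamed vehicle, 6 inflamed vehicle, 6 non-inflamed inhibitor and 6 inflamed inhibitor libraries of the transfer model. For the TNFΔARE model these numbers were 5, 5, 5 and 6.

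Intestinal epithelium renews itself without pause from dividing cells of the crypts. Before DNA synthesis, cyclin D and cyclin E kinases release the E2F transcription factors, which switch on the genes of the replication machinery. Genes of mitosis follow later and depend in part on FOXM1 and on a promoter element called the cell cycle genes homology region. In whole tissue, a lower level of these mRNAs can come from fewer dividing cells or from less RNA per cell, and bulk libraries cannot tell these apart.

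The promoters of 5 members are shown as chosen examples of letters found in some replication genes and in some mitotic genes. They are RefSeq sequences of GRCm38.p6, 250 bases before to 50 bases after the annotated start, written 5′ to 3′ on the strand of the gene. In Mcm3 (chr1:20820263-20820562, minus strand) and Mcm7 (chr5:138171834-138172133, minus strand), both subunits of the replicative helicase, capitals mark TTTGGCGC or TTTCCCGC, letters of an E2F site, on either strand. In Cdk1 (chr10:69352863-69353162, minus strand), Ccnb2 (chr9:70421505-70421804, minus strand) and Plk1 (chr7:122159185-122159484, plus strand), all of which drive mitosis, capitals mark TTTGAA, letters of the homology region.
Mcm3: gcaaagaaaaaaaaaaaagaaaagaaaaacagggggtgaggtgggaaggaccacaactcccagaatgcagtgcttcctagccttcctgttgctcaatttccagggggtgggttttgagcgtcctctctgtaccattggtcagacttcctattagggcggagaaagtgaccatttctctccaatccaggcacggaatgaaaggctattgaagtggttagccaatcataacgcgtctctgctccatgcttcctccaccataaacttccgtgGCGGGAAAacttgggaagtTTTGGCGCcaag
Mcm7: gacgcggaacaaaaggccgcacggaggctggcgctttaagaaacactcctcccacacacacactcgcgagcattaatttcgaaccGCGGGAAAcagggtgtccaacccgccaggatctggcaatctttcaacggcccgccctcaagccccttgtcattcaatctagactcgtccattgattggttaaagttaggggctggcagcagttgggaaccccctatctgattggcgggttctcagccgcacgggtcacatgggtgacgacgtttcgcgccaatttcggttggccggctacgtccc
Cdk1: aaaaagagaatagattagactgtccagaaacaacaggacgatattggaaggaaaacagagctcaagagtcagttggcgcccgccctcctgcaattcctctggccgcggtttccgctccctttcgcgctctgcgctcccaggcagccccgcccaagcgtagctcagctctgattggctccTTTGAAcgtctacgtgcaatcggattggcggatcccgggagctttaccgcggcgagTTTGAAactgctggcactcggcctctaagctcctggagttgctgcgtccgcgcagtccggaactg
Ccnb2: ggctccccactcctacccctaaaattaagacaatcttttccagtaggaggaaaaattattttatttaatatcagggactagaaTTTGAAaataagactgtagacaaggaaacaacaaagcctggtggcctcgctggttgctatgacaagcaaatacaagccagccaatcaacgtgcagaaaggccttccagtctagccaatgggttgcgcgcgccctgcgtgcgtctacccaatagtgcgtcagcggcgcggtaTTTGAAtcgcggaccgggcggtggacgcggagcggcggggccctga
Plk1: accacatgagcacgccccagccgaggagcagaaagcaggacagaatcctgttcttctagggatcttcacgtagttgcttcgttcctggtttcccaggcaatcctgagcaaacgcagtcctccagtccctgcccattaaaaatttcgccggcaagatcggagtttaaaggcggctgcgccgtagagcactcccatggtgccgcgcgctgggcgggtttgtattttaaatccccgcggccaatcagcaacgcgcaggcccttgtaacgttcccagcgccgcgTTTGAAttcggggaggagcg

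A promoter was at hand for 31 of the 40 members, and not for Kif20a, Ccna2, Aurkb, Foxm1, Mcm4, Gins2, Tpx2, Ccne2 and Ccnd1. The E2F letters, searched on both strands, were in 7 of these 31 promoters (22.6%), beside 1.63% of all 27025 promoters of the same length. Of the 7, 6 were among the 8 licensing and fork promoters (Mcm3, Mcm5, Mcm6, Mcm7, Cdc6 and Cdt1) and the other was Cdk2. The letters TTTGAA on either strand were in 12 of 31 (38.7%), beside 18.1% of all promoters, and in 5 of 7 promoters of mitotic and checkpoint kinases and anaphase regulators. The letters did not split the roles cleanly. The helicase gene Mcm2 held TTTGAA and no E2F letters, and Pcna held neither. Mitotic genes without TTTGAA included Ccnb1, Bub1, Birc5, Cenpe and Nusap1. CCAAT, the core letters bound by the factor NF-Y, was in 23 of 31 (74.2%), beside 37.9% of all. Matches to the different letters were counted apart and may share bases, and each match is a description of letters, not of a bound site.

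The depth per library, in units of 1000000 counts, was 5.95 to 22.3 for the transfer model and 5.8 to 13.1 for the TNFΔARE model. A single library stood apart: in transfer inflamed vehicle replicate 3, a list of small intestinal enterocyte genes had a mean log2 level of 11.02, where the other 22 transfer libraries had 1.31 to 6.42 and the TNFΔARE libraries 8.65 to 11.1, so its transcripts go against the label of colon. Without it the counts of called members below stayed at 0 with vehicle and 2 with the inhibitor, and the median change with vehicle was 0.36. Transcripts of pancreatic acinar cells were high in 5 inflamed transfer libraries (replicates 1 and 5 with vehicle, replicates 3, 5 and 6 with the inhibitor). Batch, as the labels number it, was uneven: of the transfer vehicle libraries, the non-inflamed were 3 from batch 1 and 2 from batch 4, and the inflamed were 1 from batch 3 and 5 from batch 4. Of the transfer inhibitor libraries, the non-inflamed were 4 from batch 1, 1 from batch 3 and 1 from batch 4. The inflamed ones were 2, 3 and 1 from the same batches. Depth went with batch in this model, at 5.95 to 7.16 in batch 3 and 15.8 to 22.3 in batches 1 and 4.

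Levels are given as CPM, counts per 1000000 counts of the scaled library, and between genes they are compared only per kilobase of transcript. Per kilobase, the members at both ends of the order were the same in the 2 models. Pcna, the sliding clamp of DNA polymerase, was highest, with a mean of 115 CPM per kb in the transfer model and 93.3 in the TNFΔARE model. Ccnd1, cyclin D1, came second at 49.1 and 40.1 CPM per kb, and Top2a, the topoisomerase that untangles replicated DNA, stood close behind at 35.9 and 26.4. At the lower end stood Cenpf, a large kinetochore protein, at 2.62 and 2.27, the checkpoint kinase gene Chek1 at 2.37 and 1.64, and the licensing factor gene Cdc6 at 2.31 and 1.64. Neighbours at this end overlapped over the libraries: Chek1 spanned 1.09 to 4.23 and Cdc6 0.772 to 4.81 CPM per kb in the transfer model.

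Mcm5 was last in both models and apart from its partners. The products of Mcm2 to Mcm7 form 1 ring with 1 copy of each subunit, yet Mcm5 read 0.372 to 2.88 CPM per kb over the transfer libraries, where the other 5 subunits read 6.26 to 38.4. Over the TNFΔARE libraries it read 0.142 to 1.63 CPM per kb against 6.41 to 23.8. No library of either model brought Mcm5 into the range of the other subunits. Its expected counts were only 12 to 185 per transfer library and 3 to 70 per TNFΔARE library, so its own comparisons rest on few reads. Whether the authors' transcript set covers Mcm5 in full is not given in the sources used here.

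The mean log2 CPM of the 40 members gave 1 level per library. In the transfer model it read 3.77, 5.30, 4.18, 4.62 and 5.68 in non-inflamed vehicle replicates 1, 2, 4, 6 and 7. In inflamed vehicle libraries it ran from 5.09 to 5.85, with a median of 5.45. Of the non-inflamed libraries, 3 lie below every inflamed library and 2 lie within the inflamed range. With the inhibitor, non-inflamed libraries read 3.71, 4.61, 5.06, 4.94, 5.70 and 4.82 and inflamed ones 5.10 to 5.94. There, all non-inflamed libraries but replicate 5 lie below every inflamed one.

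**Figure D1:**
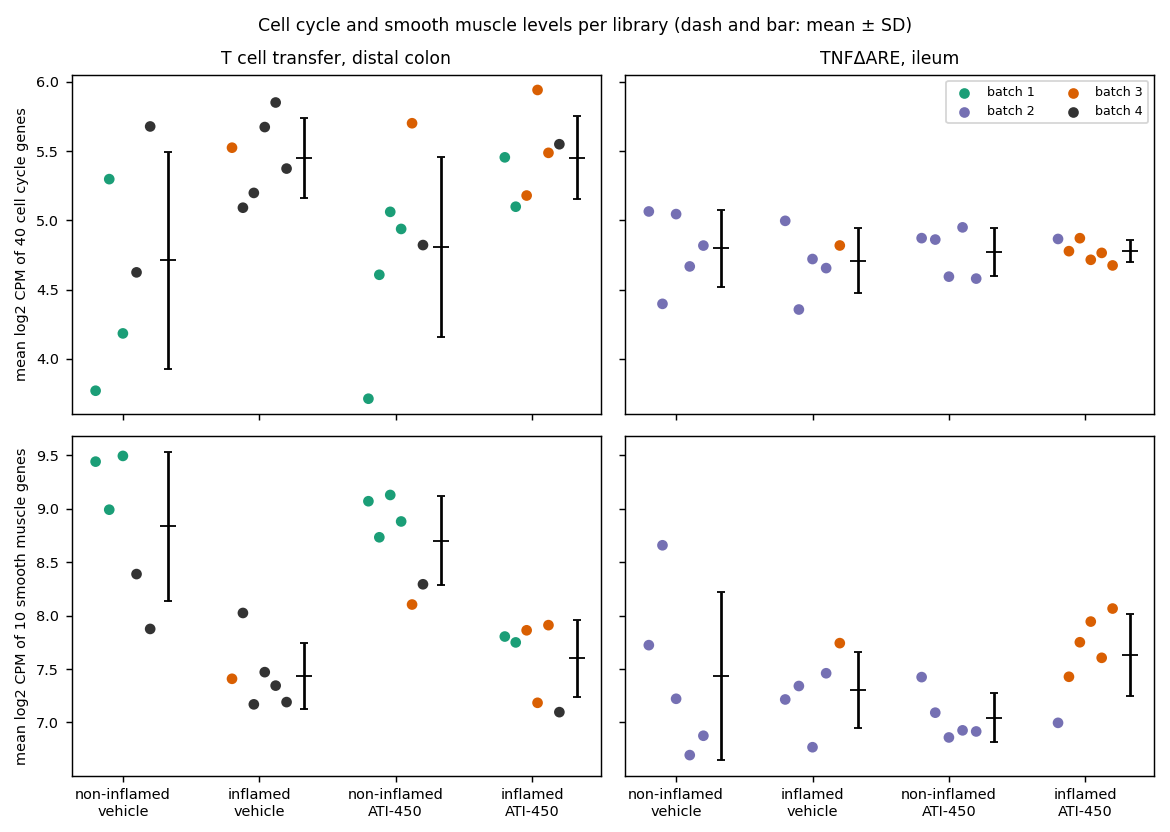
Mean log2 CPM per library of the 40 cell cycle genes (upper row) and of 10 smooth muscle genes (lower row), by group, for the transfer model (left) and the TNFΔARE model (right). Points are libraries coloured by batch and the dash with bars is the mean ± SD; non-inflamed transfer libraries spread from 3.71 to 5.70 in the upper row, inflamed ones from 5.09 to 5.94.

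The spread within a group was wider without colitis than with it in the transfer model. The SD of the member level was 0.78 in non-inflamed vehicle and 0.65 in non-inflamed inhibitor libraries, beside 0.29 and 0.30 in the inflamed groups. Gene by gene, the highest library of a group exceeded the lowest by a median factor of 4.36 and 4.21 in the non-inflamed groups, beside 1.93 and 2.35 in the inflamed groups. Non-inflamed inhibitor replicate 1 held the lowest value of the model for 21 members and non-inflamed vehicle replicate 1 for 12, whereas inflamed inhibitor replicate 4 held the highest for 17. The TNFΔARE groups were tighter, with SDs of 0.28, 0.24, 0.17 and 0.08 and every library between 4.36 and 5.06. These differences in spread are described and were not tested.

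**Figure D2:**
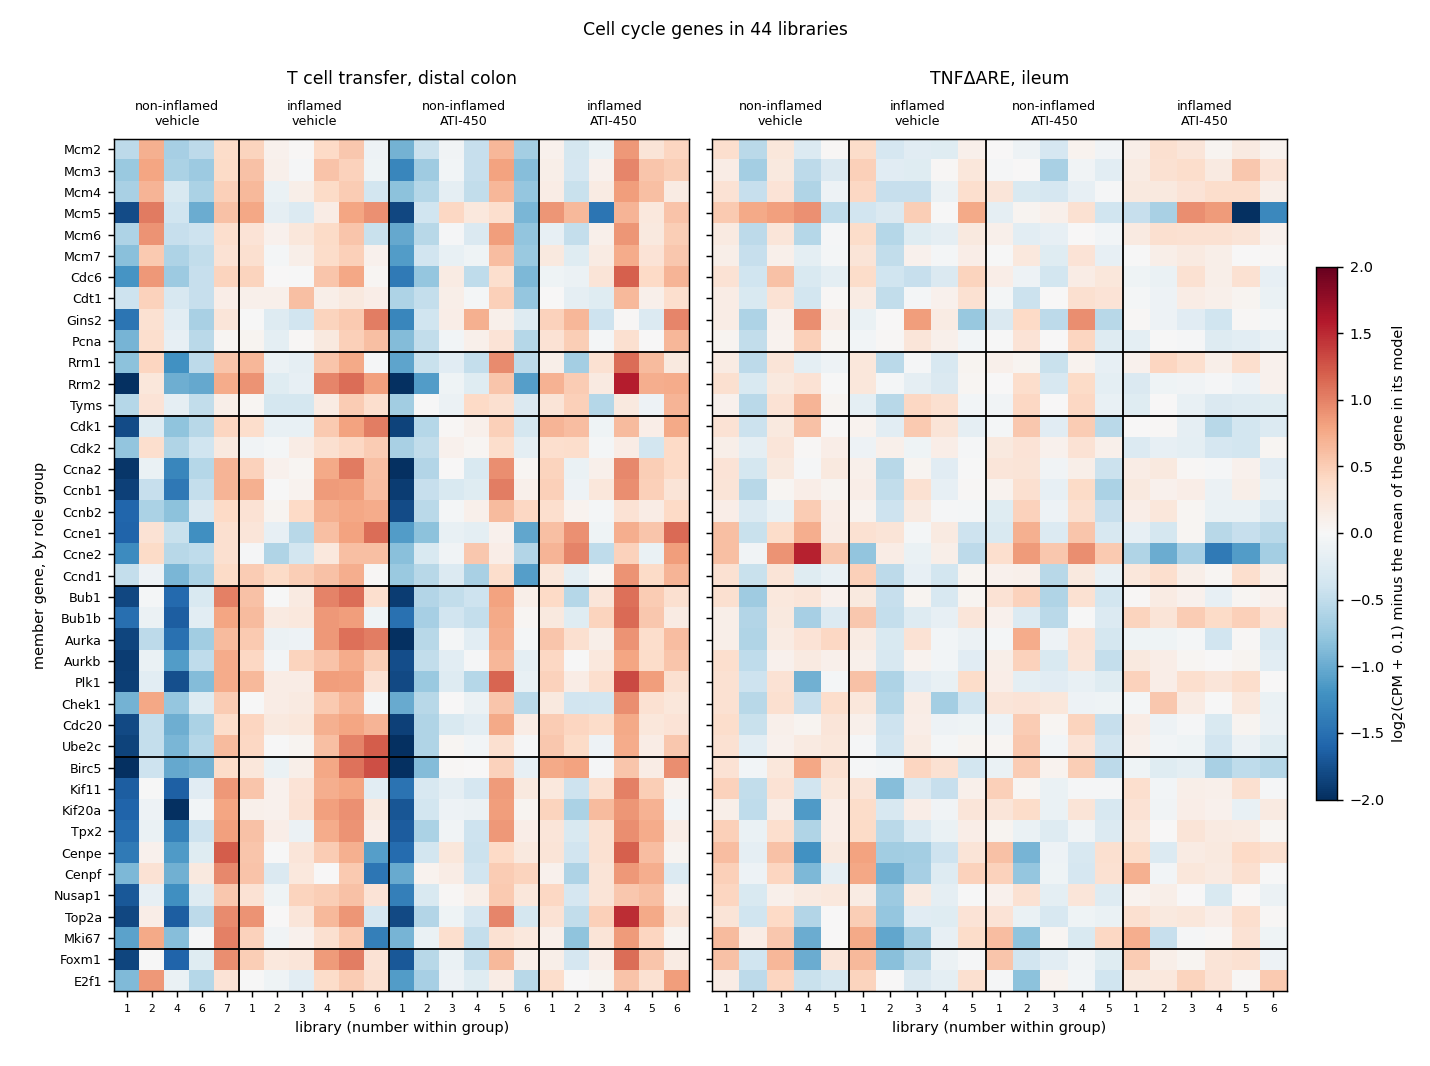
Level of each of the 40 genes (rows, by role group) in each of the 44 libraries (columns, by group), as log2(CPM + 0.1) minus the mean of that gene in its model. Whole columns are pale or dark together in the transfer model, darkest blue in replicate 1 of both non-inflamed groups; Ccne2 stands out in the TNFΔARE model.

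Members moved together over the transfer libraries. The Pearson correlation of each member with the mean of the other 39, across 23 libraries that share batches and groups, ran from 0.613 for Cenpf to 0.979 for Ccna2, the cyclin of S and G2 phase. In the 21 TNFΔARE libraries Ccna2 was again highest at 0.853, but Ccne2, cyclin E2, and Mcm5 were at -0.057 and -0.016. The genes outside the list most like the member mean were Ercc6l, Rad54l, Chtf18, Mms22l and Melk in the transfer model (0.991 to 0.972) and Rad54l, Racgap1, Cdca8, Dlgap5 and Shmt1 in the TNFΔARE model (0.923 to 0.859). These correlations are descriptions.

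Smooth muscle transcripts had lower group medians in inflamed than in non-inflamed transfer libraries, where the member level had higher ones. Whether the levels were related library by library was not tested. The mean log2 CPM of 10 smooth muscle genes was 7.88 to 9.49 in non-inflamed and 7.17 to 8.02 in inflamed vehicle libraries, with summed levels of 3127 to 10668 and 2093 to 3560 CPM. Of these 10 genes, 6 were called lower and 0 higher in inflamed vehicle mice (median log2 fold change -0.87), none of them was at 0 in any library, and 8 were lower with the inhibitor (-0.90). Among all genes, 6.28% were called lower and 7.9% higher with vehicle, and 11% lower with the inhibitor. Of 16 T cell genes, 14 were called higher with vehicle, and their mean log2 CPM was -1.68 to 2.07 in non-inflamed and 1.86 to 4.04 in inflamed libraries, with at most 5 of 16 at 0 in a non-inflamed library and none in an inflamed one. Of 9 tested stem cell and crypt base genes, 1 was lower and 0 higher (median -0.14). The part of these in the levels of the cell cycle genes was not tested.

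In vehicle-treated transfer mice, most members had a higher mean level with colitis, but 0 of 40 passed the test. Fold changes here are log2 values from edgeR's quasi-likelihood fit with batch as a term, with their standard error (SE), and a call needs an adjusted p under 0.05 over all 15317 genes. Of all genes, 14.2% were called in either direction, 7.9% higher and 6.28% lower. At an unadjusted p under 0.05 there were 4 members, where 30.6% of all genes passed, and DESeq2 also called 0. Of the 40 fold changes 36 were above 0, where 53.3% of all genes were. The members moved together over these libraries, so counts of them above 0 are not separate observations. Their median was 0.31 beside 0.05 over all genes, and the SE of single genes ran from 0.24 to 0.53. Within batch 4 alone (5 inflamed, 2 non-inflamed) the median was 0.25, and without a batch term it was 0.65, with 6 members called. The median was 0.71 without non-inflamed vehicle replicate 7, where 4 members (Aurka, Birc5, Cdc20 and Ube2c) passed, and 0.17 without replicate 6 of that group.

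**Figure D3:**
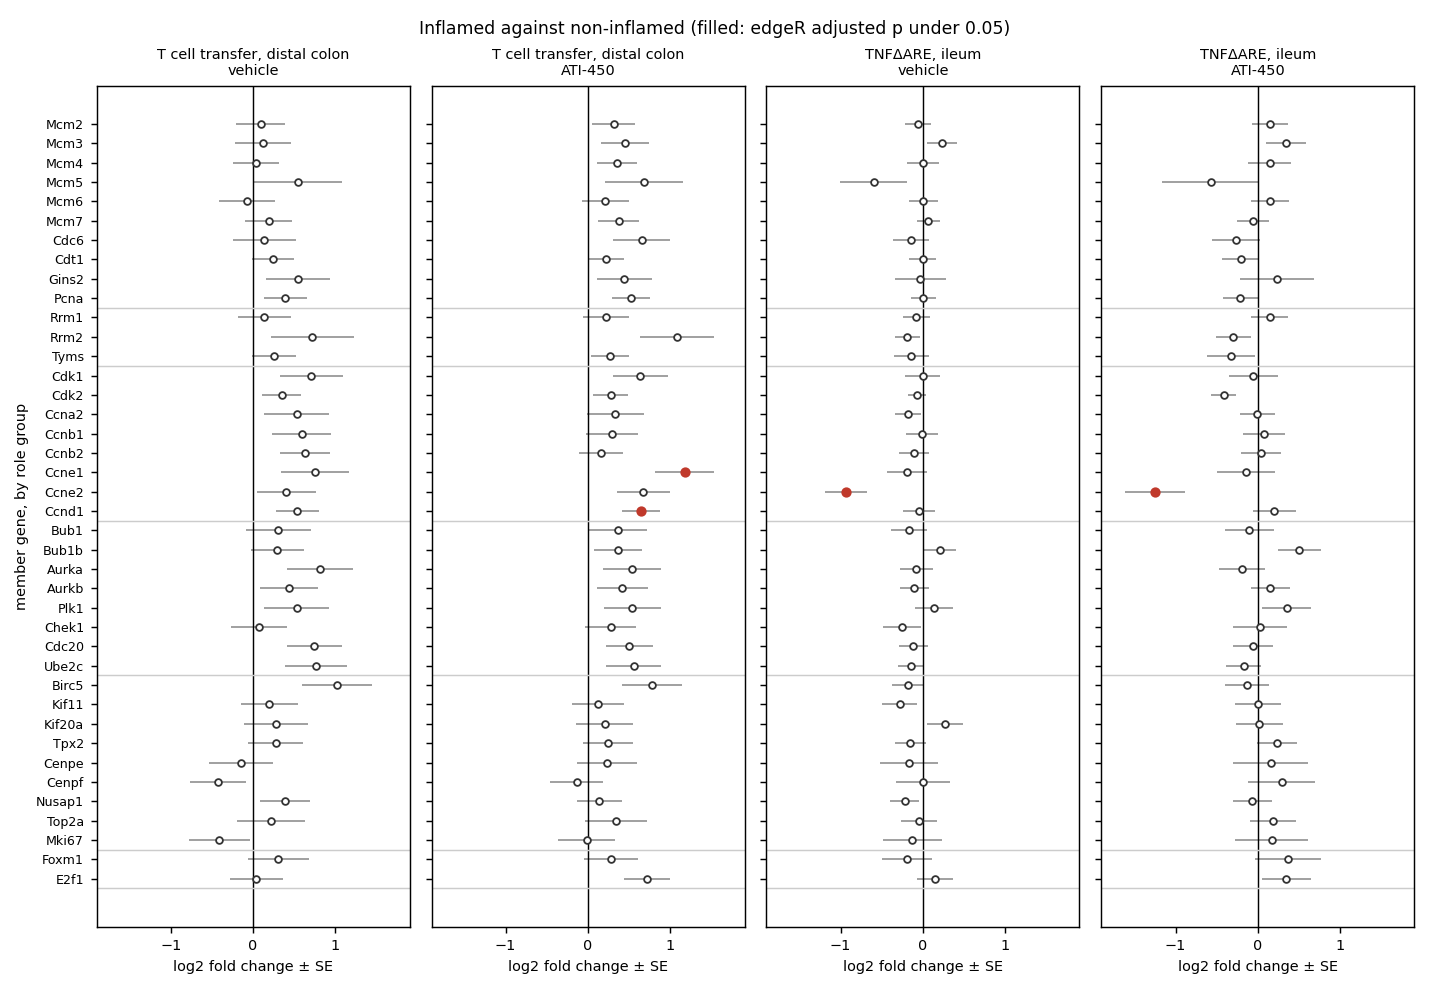
Log2 fold change ± SE of each of the 40 genes, inflamed against non-inflamed, in 4 panels for the 2 models and the 2 treatments; genes are ordered by role group. Filled red points passed the test: Ccne1 and Ccnd1 with the inhibitor in the transfer model, and Ccne2 in both panels of the TNFΔARE model.

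By role, the cyclins and their kinases had a median of 0.56, with 8 of 8 above 0, and the mitotic and checkpoint group 0.48, also with 8 of 8. The licensing and fork genes had 0.16 (9 of 10), the spindle and chromosome genes 0.22 (6 of 9), nucleotide synthesis 0.26 and the transcription factors 0.17. The highest value was that of Birc5, survivin, of the chromosomal passenger complex. It read 10.1, 30.2, 19.7, 21.0 and 52.3 CPM in non-inflamed libraries and 36.8 to 99.1, median 57.9, in inflamed ones. All inflamed libraries lay above 4 of the 5 non-inflamed ones, and replicate 7 of the latter overlapped. The fold change was 1.02 ± 0.42 (SE) and did not pass (edgeR adjusted p = 0.106).

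Other members toward the upper end were Ccne1, given below, and the following 5. Aurka, the kinase of the spindle poles, had 0.81 ± 0.40, Ube2c, the ubiquitin-conjugating partner of the anaphase-promoting complex, 0.77 ± 0.38, and Cdc20, its activator, 0.75 ± 0.33. Rrm2, the small subunit of ribonucleotide reductase, had 0.72 ± 0.51 and Cdk1, the mitotic kinase, 0.71 ± 0.38. None of these 5 passed (adjusted p by edgeR 0.131 to 0.344). The helicase genes were near 0, from -0.07 for Mcm6 to 0.19 for Mcm7, apart from Mcm5 at 0.54 ± 0.53.

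Neither of the common proliferation markers passed. Mki67, which encodes the antigen Ki-67 that coats mitotic chromosomes, read 63.6, 227, 74.0, 132 and 269 CPM in non-inflamed vehicle libraries and 51.6 to 192, median 155, in inflamed ones. The groups overlapped over nearly their whole range, with 144 ± 51.6 (SD, n = 6) inflamed and 153 ± 91.6 (n = 5) non-inflamed, and a log2 fold change of -0.41 ± 0.37 (edgeR adjusted p = 0.470). Pcna read 88.4, 212, 150, 116 and 172 CPM in non-inflamed and 147 to 253, median 183, in inflamed libraries. Its inflamed libraries lay toward the upper end of an overlapping range, with 0.39 ± 0.26 (edgeR adjusted p = 0.318).

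None of the cyclins of G1 and the start of S phase passed. Ccne2, cyclin E2, had 0.40 ± 0.36 (edgeR adjusted p = 0.460). Ccnd1, cyclin D1, read 123, 158, 90.6, 110 and 222 CPM in non-inflamed and 173 to 282, median 242, in inflamed vehicle libraries. All inflamed libraries lay above 4 of the non-inflamed ones, and 1 of them below replicate 7 (0.54 ± 0.26, edgeR adjusted p = 0.162). Ccne1, cyclin E1, read 4.09, 15.4, 9.26, 5.32 and 15.7 CPM against 8.59 to 27.5, median 17.1. Its groups overlapped between 8.59 and 15.7 CPM, and the change of 0.75 ± 0.41 did not pass (edgeR adjusted p = 0.217).

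**Figure D4:**
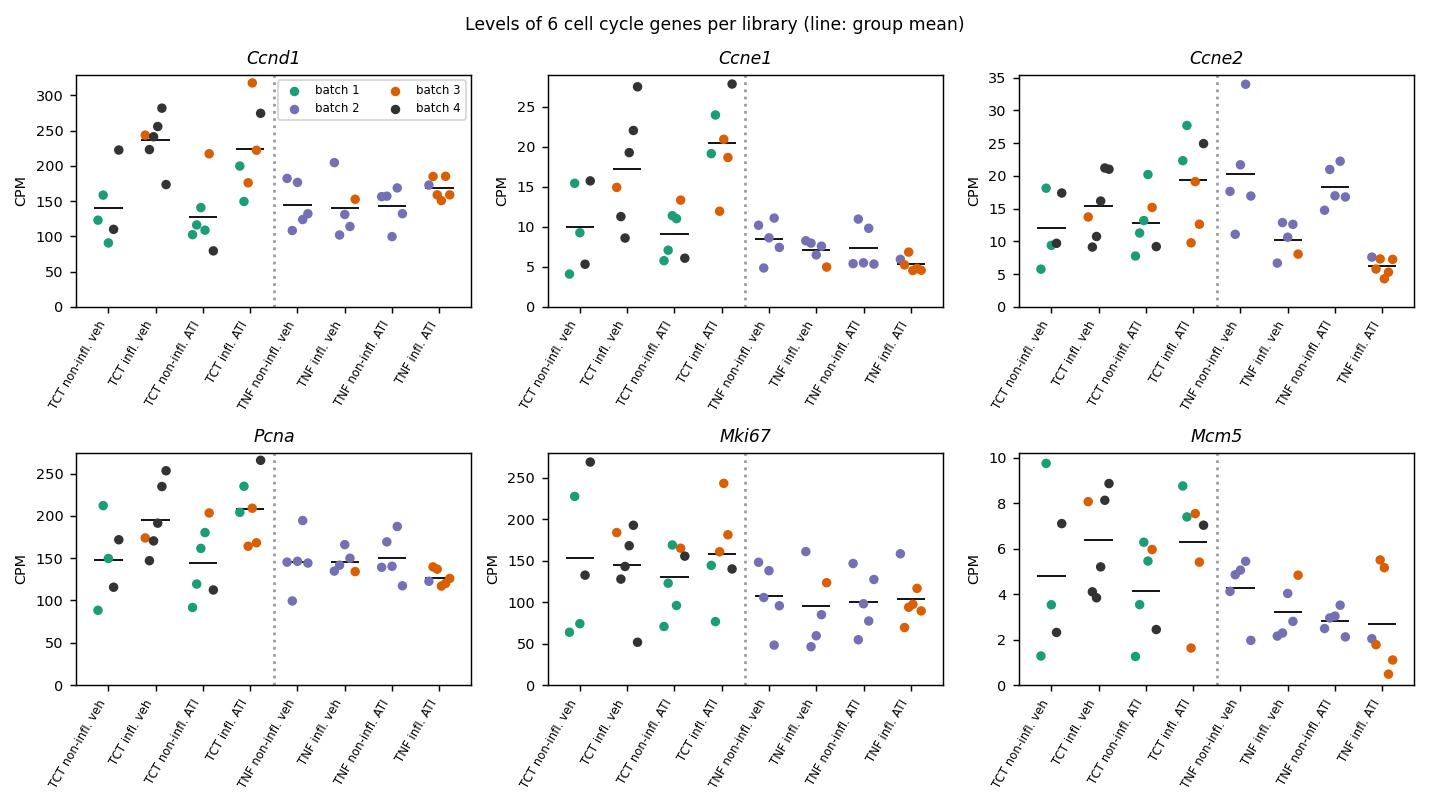
CPM of Ccnd1, Ccne1, Ccne2, Pcna, Mki67 and Mcm5 in every library of the 8 groups, transfer model (TCT) left of the dotted line and TNFΔARE model (TNF) right of it; points are libraries coloured by batch and lines are group means. Ccne2 falls from 20.3 to 10.2 CPM with vehicle and from 18.3 to 6.25 with the inhibitor in the TNFΔARE model.

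With the inhibitor, colitis in transfer mice went with higher Ccne1 and Ccnd1. These were 2 of 40 members called higher and 0 lower, where 14% of all genes were higher and 11% lower (25% in either direction). Of the 40 fold changes 38 were above 0, where 51.3% of all genes were, with a median of 0.36 beside 0.02 over all genes. By role the medians were 0.48 for cyclins and kinases, 0.46 for the mitotic group, 0.41 for licensing (10 of 10 above 0), 0.26 for nucleotide synthesis, 0.20 for the spindle group and 0.50 for the transcription factors. No member's groups were free of overlap, as was also so with vehicle, where 13% (inhibitor) and 6.63% (vehicle) of all genes had none.

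Ccne1 read 5.76, 7.07, 11.4, 11.02, 13.3 and 6.07 CPM in non-inflamed inhibitor libraries and 11.9 to 27.8, median 20.04, in inflamed ones. Only inflamed replicate 3, the lowest at 11.9, fell below the highest non-inflamed library. The means were 20.4 ± 5.38 and 9.11 ± 3.20 CPM (SD, n = 6 each), and the change was 1.17 ± 0.36 (edgeR adjusted p = 0.0234). The call was lost without non-inflamed inhibitor replicate 6 or inflamed inhibitor replicate 1, 2 or 6, with adjusted p of at most 0.0914, and within batch 3 the change was 0.35. Without the library with small intestinal transcripts and the 5 with pancreatic ones, neither Ccne1 nor Ccnd1 passed (edgeR adjusted p = 0.0533 and 0.0922), with changes of 1.19 and 0.65.

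Ccnd1 read 102, 116, 141, 109, 217 and 79.3 CPM in non-inflamed inhibitor libraries and 149 to 318, median 211, in inflamed ones. All inflamed libraries lay above 5 of the 6 non-inflamed ones, and replicate 5 of the latter lay within their range. The change of 0.64 ± 0.23 passed narrowly (edgeR adjusted p = 0.0449) and was lost in 15 of 23 fits that left out 1 library. In batch 3, with 3 inflamed libraries against 1, it was 0.12, and the mean level of all 40 members was 0.17 lower in inflamed mice there, where it was 0.70 higher in batch 1 (2 against 4) and 0.73 higher in batch 4 (1 against 1).

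Of the others, Rrm2 had 1.08 ± 0.45 (edgeR adjusted p = 0.0844), the S phase transcription factor gene E2f1 0.72 ± 0.28 (0.0641), and Pcna 0.52 ± 0.23 (0.0932). Pcna read 91.7 to 203 CPM, median 141, in non-inflamed and 164 to 266, median 207, in inflamed inhibitor libraries, overlapping between 164 and 203. Mki67 read 70.6 to 169, median 139, against 76.5 to 243, median 152, and stayed at -0.02 ± 0.35 (edgeR adjusted p = 0.974).

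In the TNFΔARE ileum, Ccne2 fell and no other member passed. With vehicle it was 1 of 40 lower and 0 higher, where 7.27% of all 14370 genes were lower and 8.66% higher (15.9% in either direction). The median member change was -0.09, beside -0.02 over all genes, with 10 of 40 above 0, where 48.2% of all genes were. By role the medians were -0.09 for the cyclins and kinases, 0.00 for licensing, -0.14 for nucleotide synthesis, -0.11 for the mitotic group, -0.15 for the spindle group and -0.03 for the transcription factors. No member's groups were free of overlap, where 9.65% of all genes were.

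Ccne2 encodes cyclin E2, a partner of CDK2 at the start of DNA synthesis. It read 17.6, 11.1, 21.7, 34.0 and 16.9 CPM in Tnf +/+ vehicle libraries and 6.67, 12.9, 10.6, 12.6 and 8.05 in Tnf ΔARE/+ ones. The groups met only where control replicate 2 at 11.1 lay below 2 inflamed libraries. The means were 20.3 ± 8.56 and 10.2 ± 2.74 CPM (SD, n = 5 each) and the change was -0.94 ± 0.25 (edgeR adjusted p = 0.0142). The call remained in each fit that left out 1 library, but narrowly at the weakest (edgeR adjusted p of at most 0.0461). The change shrank to -0.66 without control replicate 4, the library with the highest level at 34.0 CPM. Within batch 2 (4 against 5) the change was -0.92 ± 0.32 and did not pass.

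With the inhibitor Ccne2 was again the member called, 1 of 40 lower and 0 higher, where 4.56% of all genes were lower and 7.91% higher (12.5% in either direction). It read 14.7, 21.0, 17.0, 22.2 and 16.8 CPM in controls and 4.28 to 7.59, median 6.51, in inflamed libraries. Every inflamed library lay below every control. The change was -1.25 ± 0.37 (edgeR adjusted p = 0.0293). All controls came from batch 2 and 5 of 6 inflamed libraries from batch 3, and the single inflamed library of batch 2, at 7.59 CPM, gave -1.26 ± 0.33 against those controls, which did not pass. The call was also lost without inflamed vehicle replicate 5, control inhibitor replicate 2 or 4, or inflamed inhibitor replicate 1 (edgeR adjusted p of at most 0.278).

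Besides Ccne2, 3 members had groups without overlap in this comparison, where 22.6% of all genes had none. Cdk2 read 19.0 to 21.9 CPM in controls and 13.9 to 18.4, median 15.2, in inflamed libraries (-0.42 ± 0.15, edgeR adjusted p = 0.0904). The helicase gene Mcm3 read 23.1 to 36.3 against 40.7 to 52.7 (0.34 ± 0.25, adjusted p = 0.4657), and Bub1b, a kinase-like protein of the spindle checkpoint, 20.4 to 31.4 against 35.4 to 42.1 (0.50 ± 0.26, adjusted p = 0.261). None of these 3 passed in the edgeR fit with batch as a term. The median over the 40 members was 0.02, with 22 above 0, where 49.2% of all genes were.

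The standard markers were near 0 in this model. Mki67 read 148, 105, 138, 48.1 and 95.5 CPM in vehicle controls and 161, 46.2, 59.4, 84.8 and 123 in inflamed mice, fully overlapping (-0.13 ± 0.36, edgeR adjusted p = 0.886). Pcna read 145, 99.4, 146, 194 and 144 against 135, 142, 166, 150 and 134 CPM, with the inflamed libraries inside the range of the controls (0.00 ± 0.15, adjusted p = 0.999 by edgeR). For Ccnd1 and Ccne1 the changes were -0.05 ± 0.19 and -0.20 ± 0.24, and with the inhibitor 0.20 ± 0.26 and -0.15 ± 0.35. With the inhibitor Mki67 had 0.17 ± 0.44 and Pcna -0.21 ± 0.21.

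The difference between the models in the effect of inflammation was tested directly in a fit of all 44 libraries, and 0 of 40 members passed, where 5.27% of 15565 genes did. The effect of inflammation was more positive in the transfer model for 3.37% and more negative for 1.91%. At an unadjusted p under 0.05 there were 5 members, where 18.9% of all genes passed, and DESeq2 called 0. The largest differences, transfer minus TNFΔARE, were those of Ccne2 at 1.32 ± 0.45 (edgeR adjusted p = 0.0773) and Birc5 at 1.19 ± 0.47 (0.134). The median difference was 0.41, beside 0.05 over all genes. It was 0.27 without transfer non-inflamed vehicle replicate 6, and 0.85 without replicate 7 of that group. Without transfer non-inflamed vehicle replicate 7, Ccne2, Birc5 and Ube2c passed, and Ccne2 alone did without transfer non-inflamed vehicle replicate 2, transfer inflamed vehicle replicate 2 or TNFΔARE control vehicle replicate 2. Gut region and model cannot be told apart in this contrast.

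ATI-450 against vehicle gave 0 called members of 40 in each of its 4 comparisons, and at an unadjusted p under 0.05 also 0. The counts of all genes were as small: 0.00653% were called in inflamed transfer mice (1 gene), and 0% in the other 3. At an unadjusted p under 0.05 stood 3.46% of all genes in inflamed and 1.45% in non-inflamed transfer mice. In the TNFΔARE model these shares were 1.5% with inflammation and 2.86% without. Member changes ran from -0.17 (Mcm4) to 0.42 (Ccne2) in inflamed transfer mice, with SEs of 0.24 to 0.52. They ran from -0.48 (Mcm4) to 0.56 (Ccnb2) in non-inflamed transfer mice, with SEs of 0.22 to 0.50. The range in the other model was -0.58 (Mcm5) to 0.38 (Foxm1) with inflammation and -0.61 (Mcm5) to 0.27 (Kif20a) without. The median over the members was 0.14, 0.07, 0.10 and -0.03 in the same order, beside 0.00, 0.00, 0.01 and -0.01 over all genes. DESeq2 and the other alternatives also called 0 members. SEs of up to 0.52 limit the size of change that could be detected.

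Member fold changes varied with transcript length in the transfer model. The 10 members with the shortest transcripts, 1.518 to 2.199 kb (Pcna, Ccnb2 and Cdc20 among them), had a median of 0.68 with vehicle and 10 of 10 above 0. The 10 with the longest, 4.355 to 11.13 kb (Cenpf, Mki67 and Cenpe among them), had 0.17 and 6 of 10. With the inhibitor the medians were 0.53 and 0.24, and in the TNFΔARE model -0.11 and -0.14 with vehicle and -0.16 and 0.16 with the inhibitor.

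The same contrast of long against short members could be read in each library. The difference of their mean log2 levels, each gene centred on its model, was lowest in inflamed vehicle replicate 6 at -1.03, where the other inflamed vehicle libraries had -0.07 to 0.14. Over all genes that library had -1.32. Among TNFΔARE libraries vehicle control replicate 4 had -0.76 and -1.21, and it is also the library with the highest Ccne2. With the length trend of each library removed, Mki67 in transfer mice had 0.07 with vehicle and 0.36 with the inhibitor, in place of -0.41 and -0.02. The members called were the same in all 4 comparisons, with adjusted p by edgeR of 0.0291 for Ccne1, 0.0256 for Ccnd1, and 0.0106 and 0.0220 for Ccne2. What sets the length trend was not tested.

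**Figure D5:**
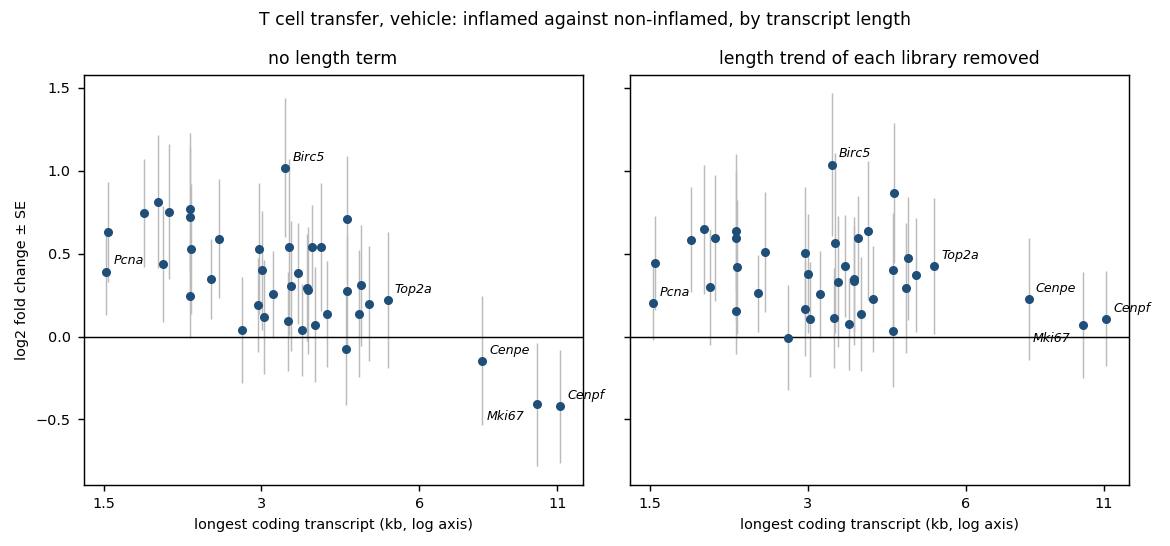
Log2 fold change ± SE of the 40 genes in vehicle-treated transfer mice, inflamed against non-inflamed, by length of the longest coding transcript (kb, log axis), without (left) and with (right) removal of each library's length trend. The long genes Mki67 and Cenpf lie below 0 on the left, with Mki67 at -0.41, and close to 0 on the right, with Mki67 at 0.07.

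Other genes of the cell cycle were read from 4 lists. Of 40 other S phase genes, 0 passed with vehicle in the transfer model (median 0.31), and 2 were higher with the inhibitor (0.41), Cdc7, the kinase that fires origins, at 1.35 (edgeR adjusted p = 0.0149) and Rpa2, which binds single-stranded DNA, at 0.81 (0.0417). Of 40 other G2 and M phase genes, 0 passed with vehicle (median 0.37), and 1 was higher with the inhibitor (0.31), Cks1b, a subunit of CDK complexes, at 1.20 (0.0332). Beside both lists, 7.9% of all genes were called higher with vehicle and 14% with the inhibitor in this model. Among TNFΔARE mice 0 of the 40 G2 and M phase genes were called by edgeR with vehicle (median -0.07, 0 at an unadjusted p under 0.05) and 0 with the inhibitor (0.03, 0). There, 27.5% and 23.9% of all genes had an unadjusted p under 0.05, and 15.9% and 12.5% were called in either direction.

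Cdkn2a changed most by fold among the cell cycle genes examined. It encodes the CDK4 and CDK6 inhibitor p16 and, in another reading frame, ARF, which stabilises p53, and a count per gene cannot separate these products. In vehicle-treated transfer mice its expected counts summed to 320 in the 6 inflamed libraries, 13 to 138 in each, and to 3 in the 5 non-inflamed ones, 3 of which had 0. The depth-scaled ratio was 96.5, with a 95% exact interval for counting error of 32.7 to 470.0. This interval was taken on the pooled counts and leaves out the spread between libraries. In CPM the inflamed libraries read 0.997 to 7.99, median 2.74, and no non-inflamed library exceeded 0.103. The fitted change of 7.47 ± 0.89 passed (edgeR adjusted p = 2.49e-05), but rests on a group near 0 and is no bound on the size. Within batch 4 it was 5.73 ± 1.44, and with the 2 groups alone it was 5.71 ± 1.33. Neither passed, and the fit of the 2 groups alone called 0 of all genes.

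With the inhibitor the sums for Cdkn2a were 1280 against 5 counts, a ratio of 313 (134 to 965), with 3.21 to 40.3 CPM, median 8.57, in inflamed libraries. Inflamed replicate 2 alone gave 649 of the 1280 counts. The fitted change was 8.30, again from a group near 0, and within batch 3 (3 against 1) it was 5.15. Every inflamed library exceeded every non-inflamed one under both treatments. In the TNFΔARE model Cdkn2a read 0.178 to 1.53 CPM over all libraries and was below the count filter. The T cell genes given above were also higher in the inflamed libraries, and their part in it was not tested.

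Of the 20 CDK inhibitors and arrest genes, 4 were higher and 1 lower in vehicle-treated transfer mice (median 0.10), and 3 higher and 0 lower with the inhibitor (0.10), beside the 14.2% and 25% of all genes called in either direction. Trp53, the gene of p53, rose by 0.45 ± 0.10 (edgeR adjusted p = 0.00731) with vehicle and by 0.47 (0.00111) with the inhibitor. Gadd45g, a growth arrest gene, rose by 1.47 (0.0137) and 0.93 (0.0471). In the TNFΔARE model 2 of 19 were higher and 1 lower with vehicle (median -0.30): Btg1, an antiproliferative gene, at 0.57 (0.00656), Trp53 at 0.44 (0.0294) and Rbl1, the pocket protein p107, at -0.35 (0.0338). With the inhibitor 1 of 19 was lower, Cdkn2b, the inhibitor p15, at -0.84 (0.0448). In that model 15.9% of all genes were called in either direction with vehicle and 12.5% with the inhibitor. Cdkn1a, the p21 target of p53, did not pass: it had 0.26 and 0.04 in the transfer model and -0.49 and -0.52 in the TNFΔARE model (adjusted p by edgeR 0.107 to 0.877).

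Among 20 G1 regulators and cell cycle transcription factors, 0 passed with vehicle in transfer mice (median 0.01), and with the inhibitor Cdk4, the partner of cyclin D, rose by 0.69 (edgeR adjusted p = 0.0150) and Tfdp2, a dimer partner of E2F, fell by 0.73 (0.0153). In the TNFΔARE model Mycn, a MYC family gene, read 3.40, 1.69, 2.28, 1.15 and 2.95 CPM in vehicle controls and 6.89, 6.11, 6.04, 5.25 and 5.77 in inflamed mice. The groups did not overlap, and Mycn rose by 1.45 ± 0.23 (edgeR adjusted p = 1.55e-04) with vehicle and by 1.85 ± 0.28 (1.72e-04) with the inhibitor, a call lost without inflamed inhibitor replicate 1 (adjusted p = 0.0874). Tfdp2 was the other called gene of this list in TNFΔARE vehicle mice, at -0.62 (0.0499). The shares of all genes called in either direction were 14.2% (vehicle) and 25% (inhibitor) in transfer mice, and 15.9% and 12.5% in TNFΔARE mice. In the transfer model Mycn had -1.43 and did not pass (0.117), and the difference between the models passed at -2.91 ± 0.64 (0.00533). Both rest on few reads: the inflamed transfer vehicle libraries held 5, 26, 28, 9, 3 and 4 expected counts of Mycn. The highest of them in CPM, at 2.15, was replicate 3, the library with small intestinal transcripts. Myc itself passed nowhere, with 0.52 and 0.38 in the transfer model and 0.44 and 0.19 in the TNFΔARE model (adjusted p by edgeR 0.0924 to 0.763).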

How the data were processed

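The authors deposited, for each model, expected counts per gene, which are whole numbers with no scaling, and a normalized signal in which library size was scaled out. Salmon 0.14.1 and DESeq2 are named for this, with the builds mm10 and GRCm38, per the submitters' processing notes. The annotation is not given in the sources used here. Nothing in the labels says that each library is a separate mouse, so p-values measure the spread between libraries.

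Counts were analysed in R 4.3.3 with edgeR 4.0.16 (TMM scaling, filterByExpr, a robust quasi-likelihood fit of all 4 groups of a model with batch as a term, two-sided F-tests, Benjamini-Hochberg adjustment over all genes tested, threshold 0.05). The models were compared in a single fit to all 44 libraries, batch being nested within the model. Mean log2 CPM used a prior count of 2. Transcript length is that of the longest protein-coding transcript in the GENCODE basic annotation of the mouse. The intervals for Cdkn2a were taken on counts pooled over the libraries of a group, so they cover counting error only and leave out the spread between libraries. PCR copies also cannot be told from separate molecules. The test was checked on counts simulated from the mean level of each gene, with planted changes. No batch effect or length trend was simulated, so the check does not cover those. Alternatives were RLE scaling, DESeq2 1.42.0, a fit without the count filter, another without batch, a replicate block, the compared pair of groups alone, single batches, each library left out, and limma 3.58.1 on log2 of the deposited signal plus 1. Leaving out the library with small intestinal transcripts together with those holding pancreatic ones (mean log2 CPM of acinar genes over 4), and removing a length trend, were chosen after seeing the data.

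The members and lists were chosen with earlier results of these data known. Library values are given for each called member with the smallest p of its role group and for Mki67, Pcna, Ccnd1 and Ccne1. Birc5, Mcm5, Cdk2, Mcm3, Bub1b, and the other members named for their size, were singled out after their values were seen. From the other lists at most the 3 called genes with the smallest p are named, with Cdkn1a and Myc. A called gene of these lists is not reported here.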

Additional observations from a re-analysis of the deposited data

Results flagged for a closer look

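Dixon's test for a library far from the rest of its group was run on 96 groups of values and marked 6, where chance alone marks about 1 in 20. In inflamed inhibitor libraries of the transfer model, replicate 4 had the highest Rrm2 level at 115.27 CPM, beside 43.8 to 64.5 in the others, and the lowest Mycn level at 0.279 CPM, beside 1.14 to 1.49. Replicate 2 of the same group had the highest Cdkn2a level at 40.3 CPM, beside 3.21 to 16.2.

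The other 3 marks concern the mean log2 level of the 10 longest members minus that of the 10 shortest. It was -1.03 in transfer inflamed vehicle replicate 6, beside -0.07 to 0.14 in the rest of its group. It was -0.201 in non-inflamed inhibitor replicate 4, beside 0.08 to 0.24, and -0.20 in non-inflamed vehicle replicate 4, beside 0.26 to 0.42.

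Mycn differed between the models in its response to inflammation with vehicle, by a test of the difference itself in edgeR, by -2.91 ± 0.64 on the log2 scale, transfer minus TNFΔARE (adjusted p = 0.00533). The inflamed transfer vehicle libraries held only 3 to 28 expected counts of Mycn each, so the size of this difference rests on few reads. For Cdkn2a the same fit gave 7.36, a value that is no measure of size: the non-inflamed transfer vehicle libraries held at most 2 counts each, and the gene was below the count filter in the fit of the TNFΔARE libraries.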

How the results depend on the processing

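The 4 comparisons of inhibitor with vehicle gave 0 called members under each alternative run. In transfer mice with vehicle (0 called), 6 members were called without a batch term, 15 with the replicate block, and 0 to 4 when 1 library was left out (4 without non-inflamed vehicle replicate 7). In transfer mice with the inhibitor (2 called), 1 was called with RLE scaling, no count filter or batch 1 alone, 0 with limma on the deposited signal, in batch 3 or without the libraries with small intestinal and pancreatic transcripts, 4 without a batch term or with the 2 groups alone, and 10 with the replicate block. Leaving out 1 library gave 0 to 5: 0 without non-inflamed inhibitor replicate 6 or inflamed inhibitor replicate 1, 2 or 6, and 5 without non-inflamed inhibitor replicate 5. It gave 1, with Ccnd1 lost, without non-inflamed vehicle replicate 1 or 6, inflamed vehicle replicate 1, 2 or 4, non-inflamed inhibitor replicate 1, 2 or 4, or inflamed inhibitor replicate 4 or 5. In TNFΔARE mice with vehicle (1 called), limma on the signal, the 2 groups alone and batch 2 gave 0, and leaving out a library 1 to 1. With the inhibitor (1 called), the replicate block, limma and batch 2 gave 0, DESeq2 gave 2 (Ccne2 and Cdk2), no batch term 4, and leaving out a library 0 to 1 (0 without inflamed vehicle replicate 5, control inhibitor replicate 2 or 4, or inflamed inhibitor replicate 1). The difference between models (0 called) gave 3 without a batch term, 14 with the replicate block and 0 to 3 with a library left out (3 without transfer non-inflamed vehicle replicate 7). Counts over all genes rose as well. The replicate block called 6130 of 15317 genes in transfer mice with vehicle (2172 in the main fit) and 6320 with the inhibitor (3824). For the difference between models it called 3395 of 15565 genes (821 in the main fit). Without a batch term, 4485 of 14370 genes were called in TNFΔARE mice with the inhibitor (1791 in the main fit). The cause of these changes was not tested. Whether replicate numbers pair the libraries is not settled here. Between libraries of the same number, each gene centred on its group, correlations over 0.1 were found for 3 of 4 pairs (median 0.323) with the inhibitor against vehicle in non-inflamed transfer mice. In each other comparison at most 2 pairs had them. The same-numbered non-inflamed transfer libraries also share a batch, so these correlations cannot show or exclude pairing. With the block the members' median change in transfer mice with vehicle was 0.86 (0.31 without it), and their median difference between the models 1.01 (0.41 without it).

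Some single values changed sign. For Mki67 in transfer mice with the inhibitor (-0.02) the value was 0.28 without a batch term, 0.14 without the small intestinal and pancreatic libraries, 0.36 with the length trend removed, 0.22 in batch 3, and -0.24 to 0.12 with a library left out; with vehicle it was 0.068 with the length trend removed. In batch 3 Pcna was -0.19 and Ccne2 -0.15. In TNFΔARE vehicle mice Pcna (0.00) was -0.0100 with RLE scaling, -0.0064 without a batch term, -0.00060 with the replicate block, -0.0087 with DESeq2, -0.030 with the length trend removed and -0.11 to 0.14 with a library left out. There Mki67 ran from -0.48 to 0.088 and Ccnd1 from -0.27 to 0.063 with a library left out, and Ccnd1 was 0.088 with limma. With the inhibitor Mki67 was -0.094 and Ccnd1 -0.038 with the replicate block, and with a library left out Mki67 ran from -0.60 to 0.65 and Ccne1 from -0.31 to 0.13.

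Counts of 3 to 70 limit Mcm5 in the TNFΔARE libraries.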
